A study of Mus musculus with 16 samples.

Results

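Trimethylation of lysine 4 and acetylation of lysine 27 on histone H3 (H3K4me3 and H3K27ac) were set side by side in macrophages recruited to ischemic mouse muscle, using all 4 H3K4me3 and all 4 H3K27ac peak lists out of 16 libraries in the series. The cells were CD45+CD11b+F4/80+CD64+ macrophages sorted from the calf muscle of wild-type C57BL6J males, 8 to 12 weeks old, after hind limb ischemia had been induced by ligating and excising the femoral artery. Each mark had 2 libraries at 2 days post injury (dpi) and 2 libraries at 4 dpi, all from injured limbs, and no library came from uninjured muscle. The chromatin was profiled by CUT&Tag, which tags the DNA around an antibody-bound histone mark with a transposase, in buffers that held sodium butyrate, an inhibitor of histone deacetylases. The remaining 8 libraries profiled H3K27me3 and H3K18la (lactylation of lysine 18) at the same time points, and were read here only as further measurements at the places that the 2 marks define.

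H3K4me3 is laid down around the start sites of genes and is the usual sign of an active or poised promoter. H3K27ac is placed by the acetyltransferases p300 and CBP at active promoters and also at active enhancers, the distal elements that carry much of the cell type specificity of a macrophage. H3K27me3 is the mark of Polycomb repression, and promoters that carry it together with H3K4me3 are called bivalent. Acetylation and methylation cannot occupy the same lysine 27 at once. Each library pools many cells, so marks on the same chromosome copy and marks in different cells cannot be told apart.

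Each list held the peaks of 1 library, with the total signal over the peak, its highest signal and the position of that maximum. Sequencing depth was unknown and the signal was not scaled between libraries, so total signal was compared as a rank within a list: a percentile of 100 is the strongest peak of that library. The marks also differed in library code: all H3K4me3 libraries carried the prefix S035, 3 H3K27ac libraries carried S143, and H3K27ac 4 dpi replicate 1 was the only one with S100. A difference between the marks cannot be told apart from a difference between these sets of libraries. The labels do not say whether replicates came from separate mice, so p-values measure the spread between these libraries. The paper calls them biological replicates and says that the marks were profiled using the same samples. Which libraries share a sample is not given, and the main tests treat the libraries as independent.

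The H3K27ac lists held more peaks than the H3K4me3 lists. The H3K4me3 libraries held 16962 and 16612 peaks at 2 dpi and 18413 and 16446 at 4 dpi. The H3K27ac libraries held 29872 and 24976 peaks at 2 dpi and 35971 and 31487 at 4 dpi. Every H3K27ac list was longer than every H3K4me3 list. The median recorded maximum was 13 to 52 signal units in H3K27ac and 115 to 194 in H3K4me3. This signal was not scaled between libraries, so the levels of the marks cannot be compared by it. H3K27ac 4 dpi replicate 1 stood apart from the other H3K27ac libraries: its peaks had a median width of 4250 bp and covered 205 Mb, against 1218 to 1719 bp and 37.8 to 65.3 Mb in the other 3, so results that rest on it are given with and without it. In all 8 lists the highest maximum lay in the same shared place, chr2:98496452-98497684 (GRCm39). The top of every list was thus held by a place that did not separate the marks. Whether the signal at this place reflects either mark was not tested.

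Median peak width did not differ detectably between the marks. It was 1796 and 2033 bp in H3K4me3 at 2 dpi and 2558 and 2030 bp at 4 dpi. In H3K27ac it was 1719 and 1218 bp at 2 dpi and 4250 and 1594 bp at 4 dpi. The means were 2104 ± 322 bp for H3K4me3 and 2195 ± 1386 bp for H3K27ac (SD, n = 4 each; 2-sided exact permutation test, p = 1), and the groups overlapped. Without H3K27ac 4 dpi replicate 1 the sign turned and the difference, H3K27ac minus H3K4me3, was −594 bp (exact p = 0.0571, where 0.0286 is the smallest that 4 against 3 libraries allow).

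H3K4me3 peaks mostly lay where H3K27ac was also called, whereas a smaller share of H3K27ac peaks met H3K4me3. Per library, the share of peaks that overlapped a peak of the other mark at the same time point by 1 bp or more was taken as the mean over its 2 libraries. For H3K4me3 this share was 80.6% and 82.3% at 2 dpi and 82.1% and 84.6% at 4 dpi. For H3K27ac it was 46.9% and 54.2% at 2 dpi and 35.9% and 47.1% at 4 dpi. The groups did not overlap, and the difference was −36.3 percentage points (82.4% ± 1.66 against 46.0% ± 7.55, SD, n = 4 each; 2-sided exact permutation test, p = 0.0286, the smallest this design allows, and 0.0714 after Benjamini-Hochberg adjustment over 5 contrasts, which misses 0.05). The asymmetry moved with the length of the lists: when each list was reduced to its 16446 strongest peaks, the difference was −3.54 points (exact p = 0.429).

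**Figure D1:**
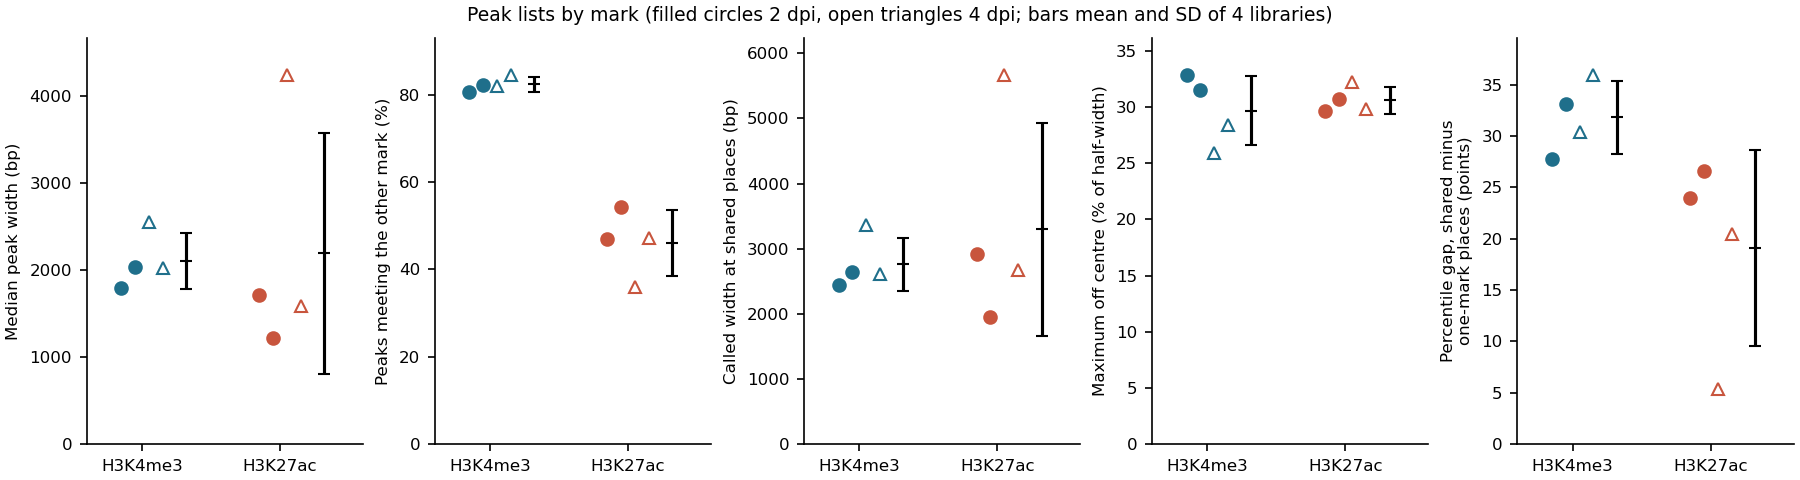
Per-library values of 5 measures for the 4 H3K4me3 and 4 H3K27ac libraries, from left to right the median peak width (bp), the share of peaks meeting the other mark (%), the median called width at shared places (bp), the distance of the maximum from the peak centre (% of the half-width) and the percentile gap between shared and one-mark places (points). Filled circles are 2 dpi, open triangles are 4 dpi, and bars give the mean and SD; only the second and the last panel show groups that do not overlap, and the lone high triangle in the first panel is H3K27ac 4 dpi replicate 1.

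To compare the same positions across libraries, the peaks of the 8 lists were merged wherever they overlapped, which gave 45040 places. A place called in all 8 lists is called shared here, and a place called in all 4 lists of one mark and in 0 lists of the other is called H3K4me3 only or H3K27ac only. Shared places numbered 9445, or 21.0% of the total. H3K4me3-only places numbered 641 (1.42%) and H3K27ac-only places 2418 (5.37%), and the other 32536 places were called in some libraries of a mark but not in all. Many of these were seen in a single H3K27ac list: 18068 places had a peak in 1 H3K27ac list and in 0 H3K4me3 lists, 12864 of them in H3K27ac 4 dpi replicate 1. The order of the one-mark classes depended on list length as well, since lists of 16446 peaks each gave 1739 H3K4me3-only and 945 H3K27ac-only places. Leaving out H3K27ac 2 dpi replicate 2, the shortest H3K27ac list, raised the H3K27ac-only count to 4231.

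Seen from each mark, most reproducible places of one carried the other. Of 12352 places called in all 4 H3K4me3 lists, 76.5% were called in all 4 H3K27ac lists and 5.19% in none. Of 13486 places called in all 4 H3K27ac lists, 70.0% were called in all 4 H3K4me3 lists and 17.9% in none. The overlap rose with the strength of the mark. In the weakest quintile of the H3K4me3 places, ranked by mean percentile of total signal, 43.7% had H3K27ac in 4 lists, and this share was 63.8%, 82.3%, 94.2% and 98.3% in the next 4 quintiles. The share with no H3K27ac call fell from 15.9% in the weakest quintile to 0.243% in the strongest, so an H3K4me3 place of the strongest quintile was almost never without a called acetylation peak. For H3K27ac the same ranking ran from 48.8% with H3K4me3 in 4 lists in the weakest quintile to 86.4% in the strongest, and 4.49% of the strongest H3K27ac places had no H3K4me3 call. Ranked by called width instead of signal, H3K4me3 places gave 47.1% to 94.6% and H3K27ac places a narrower span of 62.3% to 79.6%.

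**Figure D2:**
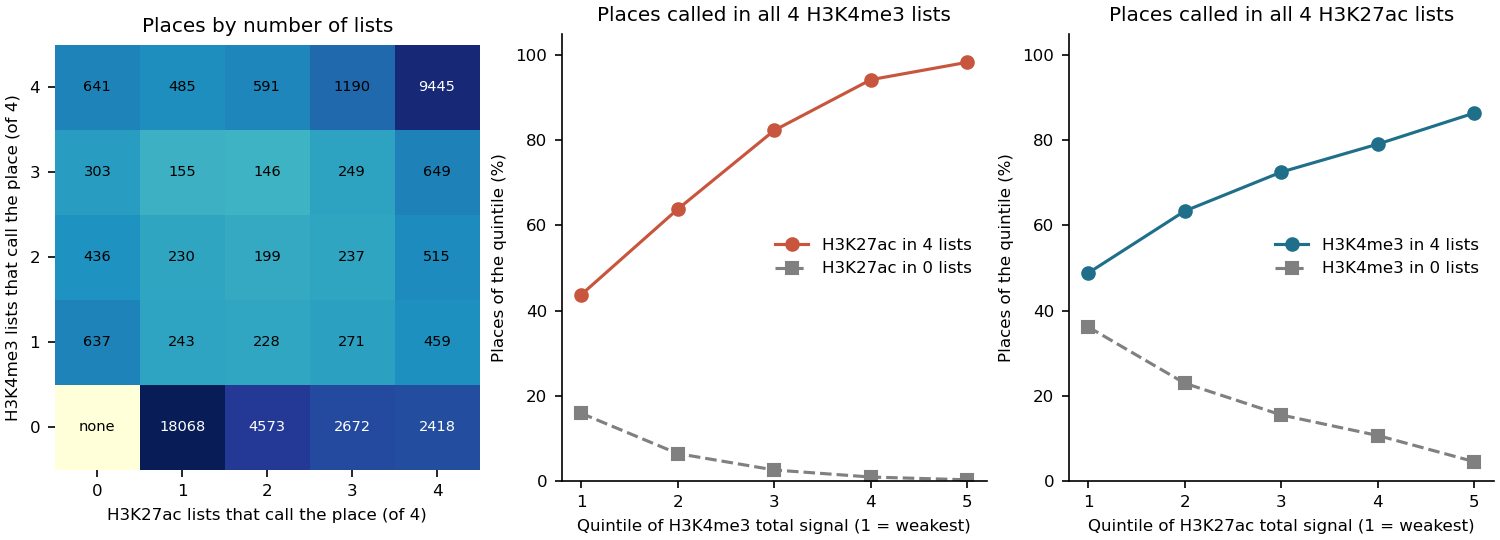
Left, the number of places by how many of the 4 H3K4me3 lists (vertical axis) and 4 H3K27ac lists (horizontal axis) call them, with colour on a log scale; middle and right, the percent of places called in all 4 lists of one mark that have the other mark in 4 lists (solid) or 0 lists (dashed), by quintile of total signal from weakest to strongest. The corner counts are 9445 shared, 641 H3K4me3-only and 2418 H3K27ac-only places, and the solid lines climb from 43.7% to 98.3% and from 48.8% to 86.4%.

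Within a list, shared places ranked above one-mark places for both marks. The median percentile of shared places in the H3K4me3 lists was 69.1 and 68.7 at 2 dpi and 72.5 and 69.1 at 4 dpi, against 35.1, 30.0, 37.4 and 28.1 for H3K4me3-only places in the same order. In the H3K27ac lists, shared places stood at 79.6, 75.0, 78.1 and 78.9 and H3K27ac-only places at 53.6, 42.5, 72.6 and 57.0. Taken over peaks, the gap between shared and one-mark places was 27.8, 33.1, 30.4 and 36.0 points in H3K4me3 and 24.0, 26.6, 5.33 and 20.5 points in H3K27ac. Every H3K4me3 library had a wider gap than every H3K27ac library (31.8 ± 3.54 against 19.1 ± 9.52 points, SD, n = 4 each; difference −12.7, 2-sided exact permutation test, p = 0.0286, adjusted p = 0.0714). The difference was −9.37 points without H3K27ac 4 dpi replicate 1 and −8.12 points without H3K27ac 2 dpi replicate 2 (exact p = 0.171), so the second of these libraries moved it by more than 1.5 times.

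The width of a place, merged over the lists that call it, rested largely on H3K27ac 4 dpi replicate 1. The median place was 6028 bp wide when shared, 2461 bp when H3K4me3 only and 6302 bp when H3K27ac only. Without that library the medians were 3804, 2479 and 2523 bp, so that the one-mark classes were of similar width. Per library, the median called width was 1584, 1720, 2251 and 1711 bp at H3K4me3-only places and 2239, 1278, 6094 and 2169 bp at H3K27ac-only places. An H3K4me3-only place lay a median of 24169 bp from the nearest H3K27ac peak of any list, with 18.4% closer than 5 kb and 15.3% more than 100 kb away. An H3K27ac-only place lay a median of 15821 bp from the nearest H3K4me3 peak, with 18.2% closer than 5 kb, 58.5% at 10 to 100 kb and 5.67% beyond 100 kb. Without H3K27ac 4 dpi replicate 1 the median distances were 31529 bp for H3K4me3-only and 11171 bp for H3K27ac-only places. Chromosome X held 36 H3K4me3-only places (5.62%), 18 H3K27ac-only places (0.744%) and 2.08% of the shared places, beside 1.49% of all places.

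The 2 other marks, which took no part in defining the classes, split the one-mark places sharply. H3K27me3 peaks overlapped 70.0% ± 2.14 of the H3K4me3-only places (SD over 4 libraries, lowest 67.1%, highest 71.8%). The same libraries overlapped 7.12% ± 0.54 of the shared places, 2.80% ± 0.73 of the H3K27ac-only places and 10.1% ± 1.36 of all places. H3K18la showed the opposite order, at 72.7% ± 8.47 of the H3K27ac-only places, 59.9% ± 10.7 of the shared places and 1.99% ± 3.04 of the H3K4me3-only places, beside 28.2% ± 7.03 of all places. The libraries of the classes did not overlap for H3K27me3 between H3K4me3-only and shared places, and for H3K18la the highest H3K4me3-only value (6.55%) lay below the lowest shared value (50.8%). No test was run, since the 4 libraries of a mark read the same places and may share mice with the libraries that defined them. The H3K27me3 and H3K18la libraries carried the same S035 prefix as the H3K4me3 libraries, and its part in these shares was not tested.

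The split was of like size when read in a window of 1000 bp centred on the maximum. The window followed the H3K4me3 maxima at shared and H3K4me3-only places and the H3K27ac maxima at H3K27ac-only places. There H3K27me3 was found at 69.2% of H3K4me3-only and 4.03% of shared places. H3K18la was found at 68.3% of H3K27ac-only and 1.83% of H3K4me3-only places. The split was also present at matched strength. Among the weakest quintile of H3K4me3 places, H3K27me3 overlapped 62.8% ± 2.65 of the 392 places with no H3K27ac call and 5.97% ± 0.99 of the 1080 places with H3K27ac in 4 lists (SD, 4 libraries). In the middle quintile the shares were 83.3% of 63 places and 7.30% of 2033 places, and all 6 H3K4me3-only places of the strongest quintile carried H3K27me3 in every library. For H3K27ac, H3K18la overlapped 56.1% of the weakest quintile without H3K4me3 and 21.9% of that quintile with H3K4me3 in 4 lists, and the shares met in the strongest quintile at 95.9% and 95.0%. With lists of equal length, H3K27me3 was found at 45.4% of the 1739 H3K4me3-only places and 5.98% of the shared places. Without H3K27ac 4 dpi replicate 1 these shares were 64.7% and 5.49%.

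**Figure D3:**
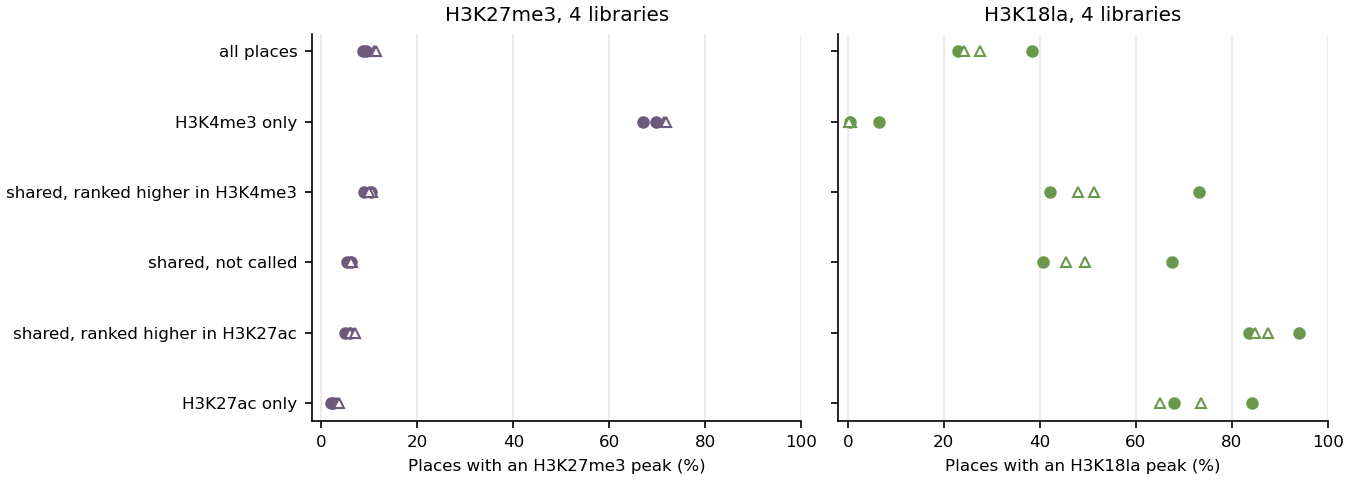
Percent of places of each class (rows) that overlap a peak in each of the 4 H3K27me3 libraries (left) and the 4 H3K18la libraries (right), with filled circles for 2 dpi and open triangles for 4 dpi. H3K27me3 sits at 67.1% to 71.8% of H3K4me3-only places and at 1.94% to 11.4% in the other rows, while H3K18la is near 0 there and highest at shared places ranked higher in H3K27ac.

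The strongest one-mark places show the split place by place. The 10 H3K4me3-only places with the highest mean percentile had means from 83.2 to 93.9 and called peaks of 3.26 to 17.1 kb. The first, chr13:114591431-114598396, stood at 96.9 and 95.1 at 2 dpi and 91.0 and 92.5 at 4 dpi (93.9 ± 2.65, SD, n = 4), with the nearest H3K27ac peak 47.3 kb away. The second, chr11:63810220-63817142, averaged 92.9 ± 2.90 and had H3K27ac 4.32 kb away. Of these 10 places 10 had an H3K27me3 peak in all 4 libraries and 8 had H3K18la in none, beside 65.8% and 93.0% of all H3K4me3-only places. The widest was chr2:105496571-105514637, where the called H3K4me3 width was 12.4 and 15.8 kb at 2 dpi and 17.1 and 4.51 kb at 4 dpi.

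The 10 strongest H3K27ac-only places had mean percentiles from 95.4 to 98.6 in the H3K27ac lists, which are longer and hold more one-mark places, so these ranks are not set against those of H3K4me3. A pair of them lay near each other on chromosome 11. At chr11:121623212-121640456 the percentiles were 99.5 and 98.7 at 2 dpi and 98.4 and 97.7 at 4 dpi (98.6 ± 0.78, SD, n = 4), and the nearest H3K4me3 peak was 23.3 kb away. At chr11:121681296-121700407 the mean was 98.2 ± 1.45. The widest, chr19:9027715-9061820, was called over 23.2, 15.4, 34.1 and 16.7 kb in the 4 libraries and lay 49.9 kb from H3K4me3. All 10 of these 10 places had H3K18la in 4 of 4 libraries and H3K27me3 in 0 of 4. This count of H3K18la is near that of strong H3K27ac places in general. H3K18la was called in all 4 libraries at 88.0% of the strongest quintile of H3K27ac-only places. For the strongest H3K27ac quintile of shared places this share was 92.2%. The count of H3K27me3 is also near its share. H3K27me3 was called in 0 libraries at 95.5% of all H3K27ac-only places and at 96.9% of their strongest quintile.

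**Figure D4:**
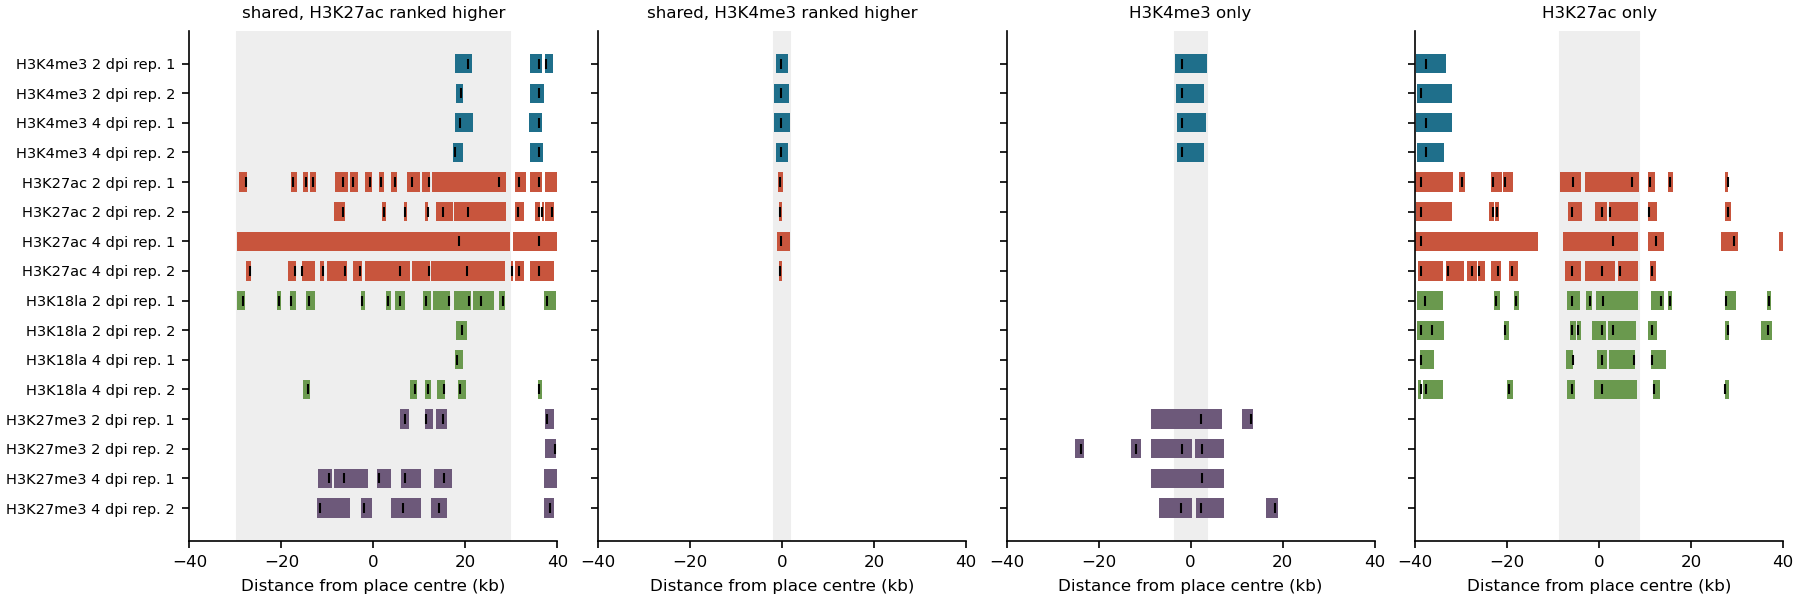
Called peaks (bars) and their maxima (black ticks) in all 16 libraries within 40 kb of the centre of 4 places, the first by rule of each kind: shared and ranked higher in H3K27ac, shared and ranked higher in H3K4me3, H3K4me3 only and H3K27ac only; the grey band is the place. In the first panel H3K27ac is 1 peak of 59.2 kb in 4 dpi replicate 1. In the other libraries 12, 6 and 9 peaks add to 34.3, 19.5 and 42.9 kb. The grey band there also holds a narrow H3K4me3 peak and, in 3 of 4 H3K27me3 libraries, H3K27me3 peaks. In the third panel H3K27me3 covers the H3K4me3 peak, and in the fourth H3K18la follows H3K27ac.

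At the 9445 shared places the marks overlapped closely but not with fixed bounds. The median called width, summed over the peaks of a library in a place, was 2443 and 2644 bp at 2 dpi and 3357 and 2612 bp at 4 dpi in H3K4me3. In H3K27ac it was 2918 and 1945 bp at 2 dpi and 5672 and 2671 bp at 4 dpi. The means of 2764 ± 405 and 3302 ± 1633 bp (SD, n = 4 each) differed by less than the spread of H3K27ac (2-sided exact permutation test, p = 0.743). The sign again rested on H3K27ac 4 dpi replicate 1, as the difference without it was −330 bp. H3K27ac was more often broken into several peaks, with more than 1 peak at 31.4%, 33.7% and 33.1% of shared places in the 3 libraries with prefix S143 and at 1.64% in H3K27ac 4 dpi replicate 1, against 16.0% to 22.4% in H3K4me3.

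How the ends of the peaks lay depended on the library pair. Among shared places with a single peak in both libraries of a pair at the same time point, the H3K27ac peak ran past both ends of the H3K4me3 peak at 60.4% and 76.7% of places for H3K27ac 4 dpi replicate 1, and at 5.11% to 28.3% for the other 6 pairs. It lay inside the H3K4me3 peak at 1.99% and 6.53% for that library and at 25.5% to 64.2% for the other pairs. The bounds thus had no common order across libraries. The maxima were steadier: the H3K27ac maximum fell inside the H3K4me3 peak at 93.8% to 99.0% of places, and the H3K4me3 maximum inside the H3K27ac peak at 94.1% to 99.4%. By length, 64.4% to 96.7% of the H3K4me3 bases lay under H3K27ac peaks, and 38.5% to 73.9% of the H3K27ac bases under H3K4me3 peaks, over the 8 pairs.

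The position of the maximum was tighter within H3K4me3 than within H3K27ac. Between pairs of H3K4me3 libraries the maxima at shared places were a median of 35.5 to 49 bp apart. Between pairs of H3K27ac libraries the distance was 102 to 168 bp, and between a library of each mark it was 104 to 174 bp. The H3K4me3 and H3K27ac maxima of a place thus lay about as far apart as 2 H3K27ac maxima did. The median recorded maximum was 13 to 52 signal units in the H3K27ac lists and 115 to 194 in the H3K4me3 lists. The longest distances, within H3K27ac and between the marks, involved H3K27ac 2 dpi replicate 2, whose median maximum was 13. The part of low signal in the spread of these positions was not tested. Maxima were within 150 bp of each other at 72.7% to 78.2% of places within H3K4me3, 47.8% to 60.1% within H3K27ac and 47.4% to 59.4% between the marks. Restricted to 4434 places with a single peak in every list, the mean of the pair medians was 37.9 bp within H3K4me3, 108 bp within H3K27ac and 100 bp between the marks. Within its own peak, the maximum lay off centre by a median of 29.7% ± 3.11 of the half-width in H3K4me3 and 30.6% ± 1.20 in H3K27ac (SD, n = 4 each; 2-sided exact permutation test, p = 0.657), and the groups overlapped.

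The marks ordered the shared places differently. Spearman's rho of total signal over the 9445 places was 0.890 to 0.968 between H3K4me3 libraries, 0.701 to 0.876 between H3K27ac libraries and 0.346 to 0.567 between the marks, so that the lowest value within a mark lay above the highest between them. For called width the ranges were 0.775 to 0.836, 0.628 to 0.791 and 0.449 to 0.620. These correlations run across places, which share library, batch and chromatin region, and are given as a description.

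To find the places behind this, ranks among the shared places were turned into normal scores in each library and compared with limma, with time point in the fit; 1 unit is 1 SD of the ranking. Of 9445 places, 2125 (22.5%) ranked higher in H3K27ac and 2687 (28.4%) ranked higher in H3K4me3 at an adjusted p under 0.05. All 4 H3K27ac percentiles lay above all 4 H3K4me3 percentiles at 1851 places (19.6%), and the reverse held at 2410 (25.5%). Without H3K27ac 4 dpi replicate 1 the counts were 2228 and 2817 of 10158 places. Ranking by mean signal per called base, which takes out width, left 1238 and 1214 calls.

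At the 2125 places ranked higher in H3K27ac the called H3K27ac width was larger than at shared places with no call, although fewer than 1 in 2 of them also passed for width. There the median called H3K27ac width was 5136 and 3255 bp at 2 dpi and 10333 and 5180 bp at 4 dpi, with 2.25, 2.43, 1.03 and 2.37 peaks per place on average, beside 2662, 1770, 5162 and 2398 bp at the shared places with no call. H3K4me3 was called there over a median of 2283 to 3407 bp, beside 2319 to 3249 bp at the shared places with no call. Total signal is a sum over the peak, so that it grows with width. At the 2687 places ranked higher in H3K4me3, H3K4me3 covered 2726 to 3536 bp and H3K27ac 1682 to 4445 bp. When width itself was ranked in the same way, 1070 places (11.3%) were wider in rank for H3K27ac and 960 (10.2%) for H3K4me3. Of the 1070, 959 were also called for signal towards H3K27ac, which is 89.6% of the width calls and 45.1% of the signal calls, and for H3K4me3 683 places did so (71.1% and 25.4%). Width calls hung on how a place was bounded. With H3K4me3 regions as the places and H3K27ac read inside them, 4240 places passed for signal and 11 for width. Of these 11, 1 was towards H3K27ac and 10 towards H3K4me3.

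H3K18la was called more often at places ranked higher in H3K27ac than at the other shared places, with no lower share on the H3K4me3 side. It overlapped 87.4% ± 4.63 of the places ranked higher in H3K27ac, 53.6% ± 13.6 of those ranked higher in H3K4me3 and 50.8% ± 11.7 of the uncalled places (SD, 4 libraries), and the lowest library of the first group, at 83.5%, was above the highest of the second, at 73.2%. In the 1000 bp window, centred on the H3K4me3 maxima in each of these groups, the shares were 78.4%, 50.6% and 45.5%. H3K18la also rose with H3K27ac signal at shared places, with mean shares of 21.9%, 35.3%, 50.3%, 73.4% and 95.0% from the weakest to the strongest H3K27ac quintile. It was called in all 4 libraries at 78.0% of the places ranked higher in H3K27ac and at 92.2% of the strongest H3K27ac quintile of shared places. How far the strength of H3K27ac accounts for the higher share was not tested. H3K27me3 overlapped 9.95% ± 0.70 of the places ranked higher in H3K4me3, 5.99% ± 0.83 of those ranked higher in H3K27ac and 6.01% ± 0.41 of the rest. These shares are small beside the 70.0% at H3K4me3-only places.

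**Figure D5:**
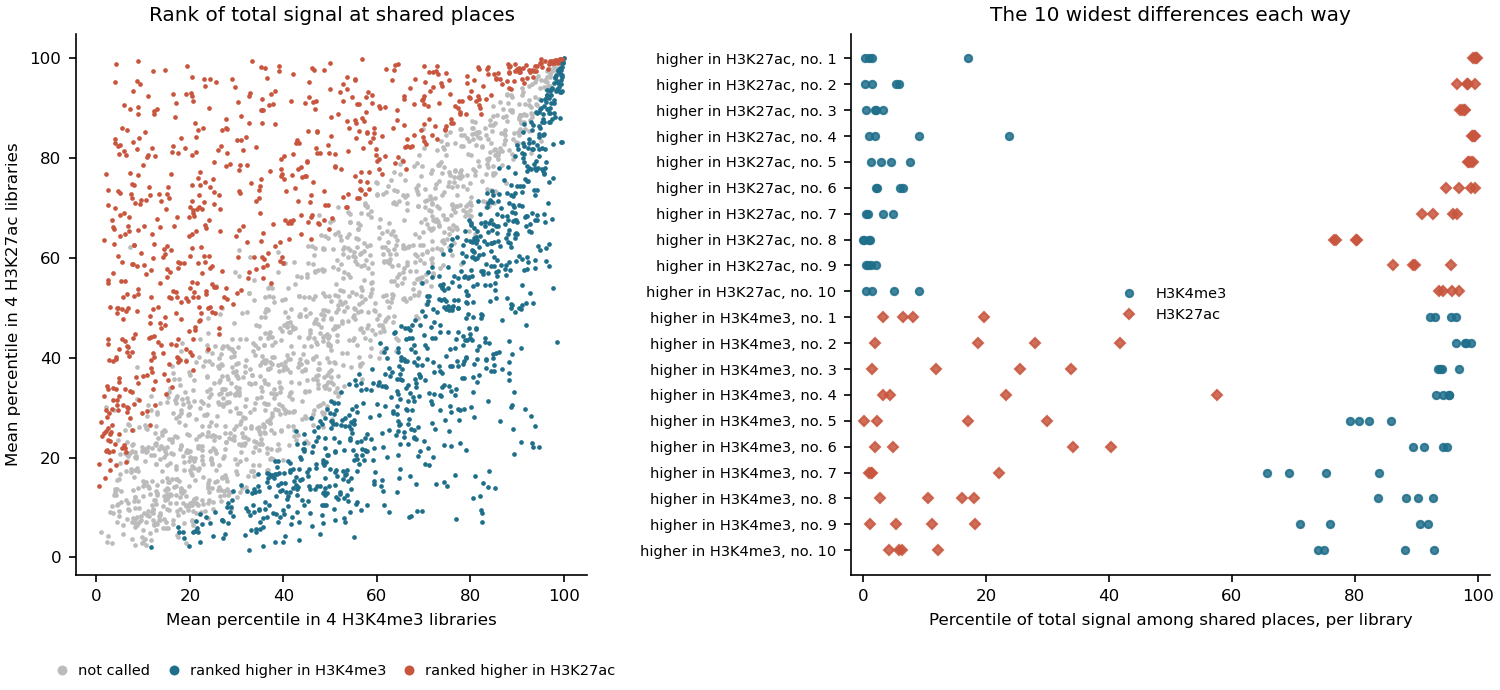
Left, mean percentile of total signal in the 4 H3K27ac libraries against that in the 4 H3K4me3 libraries at 3000 of the shared places drawn at random, coloured by limma call; right, the percentile in each of the 8 libraries at the 10 places with the widest difference in each direction. On the right every H3K27ac value lies above every H3K4me3 value in the upper 10 rows (76.6 to 99.9 against 0.00529 to 23.8), and below it in the lower 10.

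The 10 widest differences towards H3K27ac were places where a small H3K4me3 peak sat in a long stretch of H3K27ac, called as several peaks in every H3K27ac library but 4 dpi replicate 1. At chr1:88139709-88198957 the H3K4me3 percentiles among shared places were 17.1, 0.302, 1.35 and 0.852 and the H3K27ac percentiles 99.5, 99.2, 99.9 and 99.7, with the libraries in the order 2 dpi replicate 1 and 2, then 4 dpi replicate 1 and 2. H3K4me3 was called there over 1.53 to 3.92 kb and H3K27ac over 19.5 to 59.2 kb, in 12, 6, 1 and 9 peaks. H3K27me3 was also called in this place in 3 of 4 libraries, and H3K18la in 4 of 4. The difference was 4.75 ± 0.32 normal-score units (SE; limma, adjusted p = 9.29e-07). At chr7:132296119-132343825 H3K4me3 stood at 1.45, 5.78, 0.259 and 5.33 and H3K27ac at 98.3, 96.6, 99.5 and 98.4, a difference of 4.21 ± 0.28 (adjusted p = 7.81e-07). At chr8:117783657-117813134 the H3K4me3 peak was 1.17 to 1.54 kb and the H3K27ac stretch 12.7 to 28.3 kb (4.13 ± 0.18, adjusted p = 1.78e-07), and H3K27me3 was called in 4 of 4 libraries beside H3K18la.

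The other 7 were chr4:144682920-144730558 (4.12), chr19:29458946-29479586 (4.09), chr5:140744314-140809193 (3.90), chr15:63953273-63978979 (3.74), chr2:145642566-145651886 (3.69), chr4:32356594-32367808 (3.68) and chr3:108755871-108774737 (3.63), each with its rank difference in normal-score units. Over the 10 places H3K4me3 covered at most 4.09 kb in any library and H3K27ac at least 5.74 kb. Width passed its own test towards H3K27ac at 10 of 10. The places were chosen by total signal, which grows with width, so this count is not separate support. H3K18la was called in all 4 libraries at 10 of 10 places and H3K27me3 in none at 8. Over the strongest H3K27ac quintile of shared places these shares were 92.2% and 90.7%, so that the counts at the 10 places were near them.

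The 10 widest differences towards H3K4me3 were smaller, from −3.01 to −2.50 units, and the H3K27ac libraries spread more there. At chr7:41147381-41150905 the H3K4me3 percentiles were 96.4, 95.6, 92.3 and 93.0 and the H3K27ac percentiles 8.09, 6.47, 19.6 and 3.23 (−3.01 ± 0.21, SE; limma, adjusted p = 1.08e-06), and neither H3K27me3 nor H3K18la was called in any library. At chr1:57008010-57023680 H3K4me3 was called over 11.6 to 14.3 kb and stood at 99.0, 98.1, 96.6 and 97.9, whereas H3K27ac was called over 2.02 to 2.68 kb at 28.0, 41.8, 1.96 and 18.7 (−3.00 ± 0.25, adjusted p = 2.75e-06). H3K27me3 was called there in 4 of 4 libraries. Its difference of −0.70 by mean signal per called base did not pass the same test.

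The remaining 8 were chr14:98403567-98408741 (−2.74), chr13:21349169-21358308 (−2.64), chr17:45043931-45049833 (−2.56), chr6:127125146-127133503 (−2.56), chr5:52268708-52274215 (−2.53), chr2:10374183-10381448 (−2.51), chr4:71208064-71214481 (−2.50) and chr13:62831397-62833614 (−2.50). At chr13:21349169-21358308 H3K27ac stood at 3.15 and 4.28 at 2 dpi and at 57.6 and 23.2 at 4 dpi, the highest H3K27ac percentile among the 10. H3K27me3 was called in 4 of 4 libraries at 6 of the 10 places and in none at 3. H3K18la was called in all 4 libraries at 0 of the 10 and in none at 2. Over all 2687 places ranked higher in H3K4me3, H3K27me3 was called in all 4 libraries at 7.22% and in none at 87.0%. Over all shared places these shares were 4.86% and 90.3%. The same shares for H3K18la were 32.4% and 21.7% of the 2687 places and 42.3% and 20.6% of all shared places.

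Whether the difference between the marks changed with time rests on 2 libraries per mark and time point. The interaction of mark and time point passed at 8 places (0.0847%), 6 of them towards H3K27ac at 4 dpi, and 1926 of 9445 had an unadjusted p under 0.05. The count rested on single libraries. It was 0 without H3K4me3 2 dpi replicate 1 or 2, H3K4me3 4 dpi replicate 2 or H3K27ac 2 dpi replicate 2, and 36, 149 and 1101 without H3K27ac 4 dpi replicate 1, 2 dpi replicate 1 and 4 dpi replicate 2. The balance of directions also turned, with 15 towards H3K27ac and 21 towards H3K4me3 without H3K27ac 4 dpi replicate 1, 437 and 664 without 4 dpi replicate 2, and 1 and 2 by maximum signal. At chr9:118486845-118510333, the widest change, H3K4me3 stood at 23.8 and 10.9 at 2 dpi and 0.291 and 0.376 at 4 dpi, while H3K27ac stood at 64.7 and 54.4 and then at 94.8 and 96.1 (interaction 3.19 ± 0.37, SE; limma, adjusted p = 0.0287). A second place on the same chromosome, chr9:118430627-118449287, lay 37.6 kb away. Its H3K27ac percentile went from 1.64 and 2.43 to 91.7 and 89.8 and its H3K4me3 percentile from 28.4 and 24.1 to 51.4 and 58.3 (2.62 ± 0.32, adjusted p = 0.0287). Both were called over more bases in every H3K27ac library at 4 dpi than in either at 2 dpi. The called lengths were 14.9 and 23.5 kb against 2.81 and 8.47 kb for the first place. For the second they were 10.1 and 18.7 kb against 0.926 and 1.89 kb. At each place the longest was that of H3K27ac 4 dpi replicate 1. The places were chosen by total signal, which grows with width, so these lengths are not separate support. By mean signal per called base the interaction passed at 0 places.

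At the other 3 places named for a change with time, the sign and the mark that moved varied. At chr4:134427517-134432708 H3K27ac went from 40.4 and 26.7 to 0.376 and 1.19 while H3K4me3 went from 47.7 and 50.9 to 69.2 and 70.3 (−2.57 ± 0.39, adjusted p = 0.0473). At chr10:24798683-24808757 H3K4me3 went from 63.6 and 70.3 to 11.2 and 7.04 with H3K27ac at 70.8 to 84.2 throughout (2.00 ± 0.29, adjusted p = 0.0470). At chr13:75932300-75956147 H3K4me3 went from 81.6 and 84.6 to 18.2 and 24.1 with H3K27ac at 96.8 to 98.5 (1.47 ± 0.20, adjusted p = 0.0445). Of the 5 places, 4 carried H3K18la in all 4 libraries, beside 42.3% of all shared places. H3K27me3 was called in all 4 libraries at chr9:118430627-118449287 and in 0 at the other 4 places. Over all shared places these H3K27me3 shares were 4.86% and 90.3%.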

How the data were processed

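CUT&Tag peak lists of 16 libraries were used, 4 for each of 4 marks. According to the methods and processing notes, the authors trimmed reads with Trim Galore 0.6.6, aligned them with Bowtie2 2.4.4, made coverage with SAMtools 1.13 and bedtools 2.30 and called peaks per library with SEACR 1.3 (stringent, threshold 0.01). The deposited values are total and maximum signal (coverage) per peak, unnormalised whole numbers, so depth is unknown. The lists use GRCm39, while the methods name mm10; coordinates are 1-based and were not converted, and no GRCm39 annotation was used here, so gene starts, gene names, marker genes and sequences were not analysed.

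Peaks on 21 chromosomes were merged at an overlap of 1 bp or more. Libraries were compared by 2-sided exact permutation tests with Benjamini-Hochberg adjustment over 5 contrasts, and places by limma 3.58.1 (R 4.3.3; trended, robust variance) on normal scores of within-library ranks, called at an adjusted p under 0.05; the fit was tested on simulated data. Named are the 10 largest called differences each way without overlap between the marks, the 10 one-mark places of highest mean percentile per mark, and the 5 largest called interactions. Shares in lists of equal length, in the 1000 bp window, at places with 1 peak per list and other marks, place widths and distances without H3K27ac 4 dpi replicate 1 were chosen after seeing the data. Members, rules and lists were chosen with earlier results of these data known.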

Additional observations from a re-analysis of the deposited data

Results flagged for a closer look

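Of 80 groups of 4 libraries, 6 held a value far from the other 3, and about 1 in 20 groups would by chance. These were the median peak width of 4250 bp in H3K27ac 4 dpi replicate 1; the H3K4me3 percentile of 17.1 in 2 dpi replicate 1 at chr1:88139709-88198957 (the others 0.302 to 1.35); the H3K4me3 percentile of 97.0 in 2 dpi replicate 1 at chr14:98403567-98408741 (the others 93.6 to 94.2); and the H3K27ac percentile of 22.1 in 2 dpi replicate 2 at chr5:52268708-52274215 (the others 0.895 to 1.45). At the H3K27ac-only places chr8:47337530-47355750 and chr13:63254254-63263269, H3K27ac 2 dpi replicate 2 was low, at 88.1 and 89.2.

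The difference between the marks changed with time at 8 shared places by limma's interaction term, with 2 libraries per mark and time point. This count was 3 by maximum signal and 0 by mean signal per base, and it rested on single libraries. The 5 named values, in normal-score units, were 3.19 at chr9:118486845-118510333, 2.62 at chr9:118430627-118449287, −2.57 at chr4:134427517-134432708, 2.00 at chr10:24798683-24808757 and 1.47 at chr13:75932300-75956147.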

How the results depend on the processing

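Depth was unknown, so absolute levels of the marks could not be compared, and 4 libraries per mark limit the exact tests. Differences are H3K27ac minus H3K4me3.

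Leaving out 1 library at a time moved the median peak width difference from −594 to 417 bp (−11.9 without H3K4me3 2 dpi replicate 1), the called width from −330 to 919 bp, the off-centre position from −0.306 to 1.91 percentage points, H3K27ac-only places from 2456 to 4231, and places changing with time from 0 to 1101. At 2 and 4 dpi alone the median width difference was −446 and 628 bp. With H3K4me3 regions as places the called width difference was −254 bp and 11 places passed for width. With the above-median peaks of each list only there were 4803 shared and 286 H3K4me3-only places, with 2174 calls for rank, 710 for width and 22 for change with time. With lists of equal length there were 1739 H3K4me3-only and 945 H3K27ac-only places, and H3K27me3 lay at 5.98% of shared and 45.4% of H3K4me3-only places and H3K18la at 71.1%, 6.51% and 90.7% of shared, H3K4me3-only and H3K27ac-only places. In the 1000 bp window H3K27me3 lay at 4.03% of shared and 1.53% of H3K27ac-only places, and without H3K27ac 4 dpi replicate 1 at 5.49%, 64.7% and 1.46% of shared, H3K4me3-only and H3K27ac-only places. By mean signal per base 2452 places passed for rank and 0 by limma for change with time (1011 at an unadjusted p under 0.05); the latter count was 3 by maximum signal and 4 by scaled log2 signal. Except where the number of libraries or places tested was changed, the cause was not tested.

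Deviations of same-numbered libraries correlated at −0.03 (2 dpi) and 0.09 (4 dpi), which cannot decide whether these libraries came from the same mice. With the replicate block, 4453 places passed for rank, 1854 for width and 81 for change with time, and the exact p for the share of peaks meeting the other mark was 0.125, the smallest 4 pairs allow. Results that need gene starts or sequence were not run.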
